A study of Mus musculus with 10 samples.

Results

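The IL-6 and LIF cytokine axis was described here by 10 genes, matched by symbol among the 18384 genes listed in mRNA-seq of mouse adipocyte precursors (APs). They comprise the ligands *Il6*, *Lif*, *Il11* and *Clcf1*, the receptor chains *Il6ra*, *Il6st*, *Osmr* and *Lifr*, the transcription factor *Stat3* and its inhibitor *Socs3*. The APs came from subcutaneous white adipose tissue of C57BL/6J mice, and were isolated by magnetic sorting that removed CD45- and CD31-positive cells and then kept SCA-1-positive cells. The control group holds 3 libraries of APs kept in growth medium with serum, and the IL-4 group holds 3 libraries of APs to which IL-4 was added 1 day after seeding, for an incubation of 4 days. The sources used here give neither the IL-4 dose nor the age of the mice, and do not say whether the 3 libraries of a group came from separate mice, so that the p-values measure the spread between these libraries, which may be technical. The comparison asks which genes of the axis differed in mRNA level after exposure of APs to IL-4. All 10 genes were listed with reads in every library and passed the filter on low counts.

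Cytokines of this family signal through receptor complexes that contain gp130, the protein encoded by *Il6st*. IL-6 and IL-11 first bind their own alpha chains and then gp130, whereas LIF signals through a pair of LIFR and gp130, and oncostatin M through OSMR or LIFR with gp130. The complexes activate JAK kinases, which phosphorylate STAT3, and STAT3 induces SOCS3, which binds gp130 and the kinases and limits the signal. In adipose tissue, stromal cells and macrophages are both known sources of IL-6, and LIF and IL-6 are known to act on precursors and adipocytes. IL-4 itself signals through other receptor chains and STAT6.

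After exposure to IL-4, APs had more mRNA for the receptor chains *Il6st*, *Lifr* and *Il6ra* and less for the ligands *Lif* and *Clcf1* and the inhibitor *Socs3*. *Il6* was called higher at the edge of the threshold, and *Il11*, *Osmr* and *Stat3* did not pass the test. At an adjusted p under 0.05 with no minimum fold, 4 of the 10 genes were higher and 3 were lower (quasi-likelihood test of edgeR, with p-values adjusted over 14009 genes by the Benjamini-Hochberg method). By the same rule 19.0% of all tested genes were higher and 18.4% were lower, so a large part of the transcriptome differed. With the thresholds of the study, which also require a log2 fold change beyond 1, *Il6st* was the only gene of the 10 called higher and none was called lower, against 5.77% and 5.26% of all tested genes. With library totals in place of TMM scaling, which shifted the median log2 fold change of all genes by -0.17, 3 genes of the axis were higher (*Il6ra*, *Il6st* and *Lifr*) and 5 lower (*Lif*, *Il11*, *Clcf1*, *Socs3* and *Stat3*) at an adjusted p under 0.05, and 12.2% and 35.4% of all genes, in place of 19.0% and 18.4%. In 3 of the 10 genes (*Il6ra*, *Il6st* and *Lifr*) every IL-4 library lay above every control library in normalized count, and in 4 (*Lif*, *Il11*, *Clcf1* and *Socs3*) every one lay below. Over all tested genes, 25.2% had groups separated in this way with IL-4 above and 25.3% with IL-4 below. The median log2 fold change of the 10 genes was -0.06, beside 0.00 over all genes. The median of its absolute size was 0.68 for the 10 genes and 0.22 for all. The 10 genes were chosen with earlier results of these data known. These counts and medians therefore describe the 10 genes and do not test the axis against other genes.

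**Figure D1:**
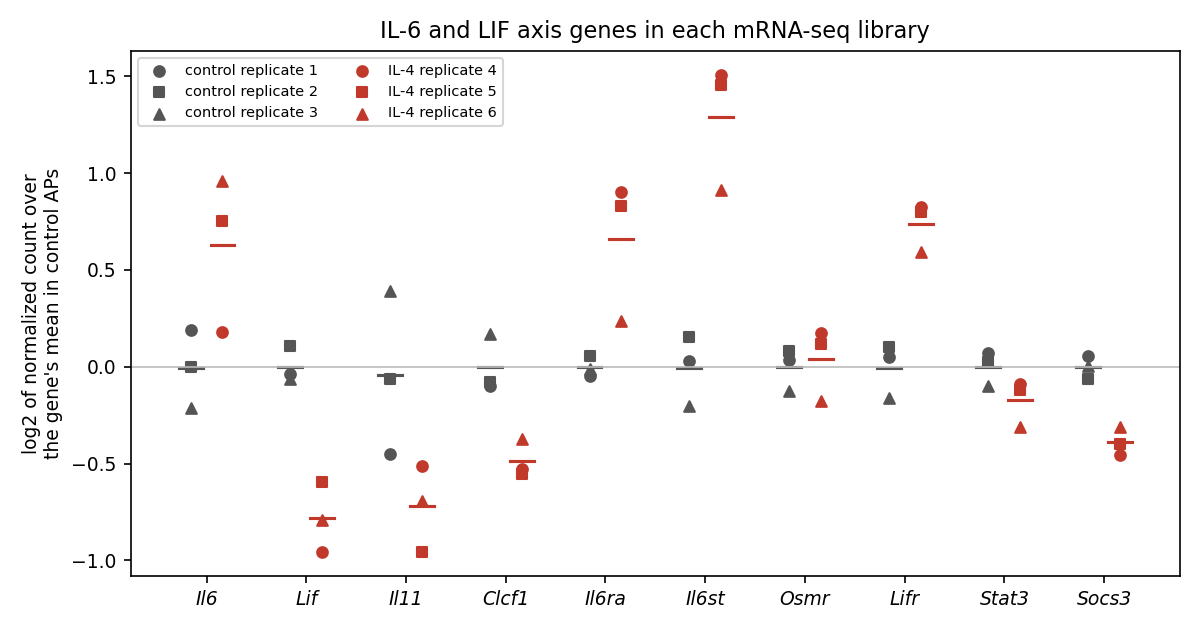
Log2 ratio of each library's normalized count to the gene's mean in control APs (vertical axis) for the 10 genes (horizontal axis), with control libraries in grey, IL-4 libraries in red, a marker shape for each replicate and short lines at the mean of the 3 plotted values. *Il6ra*, *Il6st* and *Lifr* have all IL-4 libraries above the controls, *Lif*, *Il11*, *Clcf1* and *Socs3* have them below, and IL-4 replicate 6 is the lowest IL-4 library for every receptor chain.

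The libraries were close in depth, with 28526779 to 28674597 rounded counts in controls and 28914008 to 29057784 with IL-4. Control replicate 3 and IL-4 replicate 6 held fewer reads on long transcripts than the others. The mean transcript length, weighted by counts, was 3829 and 3642 bases in these libraries, and 4016 to 4096 in the other 4. Among the 4054 tested genes with transcripts of 4000 bases or more and a read in every library, the median log2 ratio of IL-4 replicate 6 to the other IL-4 libraries was -0.26, and that of control replicate 3 to the other controls was -0.11. Among the 4094 genes under 2000 bases these medians were 0.25 and 0.12. The transcripts of *Il6st* (5452 bases), *Osmr* (4836 bases), *Lifr* (8700 bases), *Stat3* (4517 bases) and *Lif* (4041 bases) are in the long class. Those of *Il6* (1141 bases), *Clcf1* (1859 bases) and *Il11* (1880 bases) are in the class under 2000 bases. For *Il6* the log2 ratio of IL-4 replicate 6 to the other IL-4 libraries was 0.46. That of control replicate 3 to the other controls was -0.31, opposite in sign to its class median. Without both libraries, 3 genes of the axis were higher (*Il6ra*, *Il6st* and *Lifr*) and 4 were lower (*Lif*, *Clcf1*, *Socs3* and *Stat3*) at an adjusted p under 0.05, while the calls over all genes grew to 25.5% higher and 25.1% lower. *Stat3* gained its call in that fit with a log2 fold change of -0.15, beside -0.17 with all libraries.

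The markers of APs were present at very different levels. *Ly6a*, which encodes SCA-1, had a mean of 120 FPKM (fragments scaled by transcript length and library size) in controls. *Pdgfra* had 55.3 and *Thy1* 366. *Cd34*, *Cd24a*, *Pi16* and *Dpp4* were low in controls, from 0.307 FPKM for *Dpp4* to 3.37 for *Cd34*. Of 9 such markers, 4 were higher with IL-4 and 1 was lower at an adjusted p under 0.05. By that rule 19.0% of all tested genes were higher and 18.4% were lower, shares to set beside every marker count in this paragraph. *Pi16* and *Cd34* rose most, with log2 fold changes of 4.02 and 3.35, and *Pdgfrb* was the lower one (-0.66). *Cd34*, *Cd24a*, *Pi16*, *Dpp4* and *Pdgfrb* were named after their values were seen. The summed normalized counts of the 9 markers were 56567 to 61242 in controls and 60368 to 63525 with IL-4. Most of each sum came from *Pdgfrb*, *Thy1* and *Pdgfra*. Several macrophage markers were also high although CD45-positive cells had been removed, with means of 2739 FPKM of *Lyz2* in controls and 776 with IL-4, and of 18.3 and 8.22 FPKM of *Ptprc*, which encodes CD45. The markers differed in direction and size. *Cx3cr1* had 1411, 1655 and 1738 normalized counts in controls and 3.21, 3.2 and 5.16 with IL-4 (from 3, 3 and 5 reads), and *Aif1* had 154, 166 and 278 in controls and 7.49, 6.41 and 13.4 with IL-4. *Mrc1* rose from a mean of 93.4 to 146 FPKM, and *Cd163* from 0.767 to 1.26 FPKM. These genes were named after their values were seen. Of 15 macrophage markers, 12 were lower and 2 higher with IL-4 at an adjusted p under 0.05, none was at 0 in any library, and their summed normalized counts ranged from 148114 to 187933 in controls and from 88421 to 102598 with IL-4. Lymphocyte markers summed to at most 4.75 normalized counts in any library, and of 5 such genes *Cd3e* and *Cd3g* were not listed. Of 7 endothelial markers, 3 were lower and 1 was higher, with sums of 1370 to 1461 in controls and 1224 to 1394 with IL-4. Of 5 genes of mature adipocytes, *Lep* and *Cidec* were not listed and *Plin1* was near 0. *Adipoq* had 0, 0 and 2.81 normalized counts in controls and 13.9, 9.61 and 10.3 with IL-4, below the filter. The sums were 512 to 604 in controls and 989 to 1373 with IL-4, nearly all from *Fabp4*. *Fabp4* was the only one tested, with 512, 523 and 599 in controls and 974, 1168 and 1363 with IL-4 (log2 fold change 1.10 ± 0.13, SE). The part of macrophages in the levels of the 10 genes was not tested. In bulk samples, fewer cells of a type and less RNA per cell cannot be told apart.

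*Il6*, on mouse chromosome 5 (chr5:30013114-30019975, GRCm38, the assembly also called mm10), encodes interleukin 6. Its promoter is shown because it held the largest number of element types among the windows of the 10 genes. The window covers 250 bases before to 50 bases after the RefSeq start (chr5:30012864-30013163, plus strand), and the capitals mark, in order, an AP-1 element (TGANTCA), a C/EBP-type element (TTNNGCAA) and a kappaB-type element (GGGNNTTTCC).
Il6 promoter: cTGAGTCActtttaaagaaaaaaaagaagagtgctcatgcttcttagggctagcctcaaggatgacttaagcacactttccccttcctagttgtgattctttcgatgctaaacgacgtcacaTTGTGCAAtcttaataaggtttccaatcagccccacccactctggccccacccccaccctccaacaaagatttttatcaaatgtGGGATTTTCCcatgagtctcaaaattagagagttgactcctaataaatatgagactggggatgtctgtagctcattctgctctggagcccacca
Counted from the start as +1, these matches lie at -249 to -243, -128 to -121 and -44 to -35. The 5 element types searched, on both strands and with free bases written as N, were these 3, a STAT3-type element (TTCNNNGAA) and a STAT6-type element (TTCNNNNGAA). Over the 32851 RefSeq mouse promoter windows of the same length, 1.63% held the kappaB-type, 7.81% the AP-1, 10.8% the C/EBP-type, 8.3% the STAT3-type and 6.95% the STAT6-type element. No match overlapped another in the windows of the 10 genes. RefSeq windows were at hand for 9 of the 10 genes, 11 windows in all, and 6 of these held at least 1 match. The share of all windows with a match to any of the 5 types was not counted, so the 6 of 11 cannot be set against it. A match is a sequence feature and was not measured as a bound site.

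*Il6* was a low transcript in these APs. The control libraries held 57.0, 49.9 and 43.2 normalized counts (from 60, 52 and 46 reads), and the IL-4 libraries held 56.7, 84.3 and 97.1 (from 53, 79 and 94 reads). IL-4 replicate 4 lay among the controls and the other IL-4 libraries lay above them. *Il6* had a log2 fold change of 0.67 ± 0.22 (SE, n = 3 per group, edgeR adjusted p = 0.0485). The call was lost with DESeq2 (log2 fold change 0.66, adjusted p = 0.0531) and when any library other than IL-4 replicate 4 was left out, with log2 fold changes from 0.50 to 0.77 and adjusted p from 0.0758 to 0.139, and without IL-4 replicate 4 it was 0.87 (adjusted p = 0.0106). With control replicate 3 and IL-4 replicate 6 both left out the log2 fold change was 0.40 (adjusted p = 0.162).

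*Lif* encodes leukemia inhibitory factor (chr11:4257568-4272514). The stretch shown holds the only match in its window, an AP-1 element in capitals at -228 to -222 (chr11:4257330-4257356, plus strand).
Lif promoter stretch: cagtcagctgTGACTCAggccatagtg
*Lif* was measured at 440, 486 and 432 normalized counts in control APs and at 233, 299 and 261 in IL-4–treated APs. The groups were well apart, with every IL-4 library below every control. Its log2 fold change was -0.77 ± 0.11 (SE, n = 3 per group, edgeR adjusted p = 0.000782), which is 1.71-fold lower. Of the 4 ligands, *Lif* alone kept its call under every alternative tried, with log2 fold changes from -0.95 to -0.68. The log2 fold changes of *Il6* and *Lif* had opposite signs, but the groups of *Il6* overlapped and its call was weaker in 11 of 14 alternatives. The ratio of *Il6* to *Lif* in FPKM was 0.482, 0.381 and 0.371 in controls and 0.9, 1.05 and 1.38 with IL-4. The ratio was higher in every IL-4 library than in every control (two-sided exact permutation test, p = 0.1, the smallest that 3 against 3 allow).

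*Clcf1* (chr19:4214238-4223505) encodes cardiotrophin-like cytokine factor 1, a ligand that acts on cells with the CNTF receptor. Control libraries held 210, 213 and 253 normalized counts and IL-4 libraries 156, 153 and 174. All IL-4 libraries were below all controls, and the log2 fold change was -0.48 ± 0.11 (SE, n = 3 per group, edgeR adjusted p = 0.0116). Without IL-4 replicate 5 it was -0.44 (adjusted p = 0.0504).

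*Il11* (chr7:4772373-4782907) encodes interleukin 11, a cytokine of stromal cells, and was the least abundant of the 10 genes. Its window at chr7:4778092-4778391 held an AP-1 element at -98 to -92, and its window at chr7:4782808-4783107 held the only STAT6-type element among the 11 windows, at -5 to +5, both on the minus strand. The stretches around them are shown with the elements in capitals (chr7:4778223-4778249 and chr7:4782843-4782872).
Il11 AP-1 stretch: ggagggagggTGAGTCAggatgtgtca
Il11 STAT6-type stretch: cagcaaggggTTCACAAGAAggggtgacct
The controls held 25.7, 33.6 and 46.0 normalized counts of *Il11* and the IL-4 libraries 24.6, 18.1 and 21.7. The groups did not overlap, but they rested on 17 to 49 reads per library. The log2 fold change was -0.71 ± 0.27 (SE, n = 3 per group) and did not pass the test (edgeR adjusted p = 0.0765, 95% interval -1.33 to -0.08 without adjustment). Without control replicate 1, the lowest control, it was -0.89 (adjusted p = 0.0456). Without control replicate 3, the highest control, it was -0.46 (adjusted p = 0.233).

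*Il6st*, which encodes the shared signalling chain gp130, was the most abundant of the 10 genes and changed most. It lies at chr13:112464070-112506860 and is listed with 1 transcript. Its promoter window (chr13:112463820-112464119, plus strand), printed as that of the most changed gene, held none of the 5 element types, so it has no capitals.
Il6st promoter: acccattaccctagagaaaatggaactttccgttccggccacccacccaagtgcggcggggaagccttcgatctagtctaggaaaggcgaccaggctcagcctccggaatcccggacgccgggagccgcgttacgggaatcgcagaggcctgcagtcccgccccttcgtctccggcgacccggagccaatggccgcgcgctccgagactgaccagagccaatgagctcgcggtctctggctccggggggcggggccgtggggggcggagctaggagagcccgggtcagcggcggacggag
Control APs held 19658, 21473 and 16731 normalized counts of *Il6st* and IL-4–treated APs 54881, 52901 and 36294. The lowest IL-4 library, replicate 6, was still far above the highest control. The log2 fold change was 1.32 ± 0.16 (SE, n = 3 per group, edgeR adjusted p = 0.000443), a 2.49-fold rise. It held under every alternative, from 1.12 to 1.49. Without control replicate 3 and IL-4 replicate 6 it was 1.39.

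*Lifr* (chr15:7090610-7197489), which encodes the LIF receptor chain, was measured at 1504, 1556 and 1297 normalized counts in controls and at 2570, 2524 and 2187 with IL-4. All IL-4 libraries were above all controls. *Lifr* had a log2 fold change of 0.74 ± 0.09 (SE, n = 3 per group, edgeR adjusted p = 0.000453), a 1.67-fold rise that held under every alternative, from 0.50 to 0.82. The mRNA of the ligand *Lif* was lower and that of its receptor chain higher in the same libraries.

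*Il6ra* (chr3:89869324-89913196) encodes the alpha chain that binds IL-6. It had 432, 464 and 443 normalized counts in controls and 835, 792 and 526 with IL-4. IL-4 replicate 6 was nearer to the controls than to the other IL-4 libraries, at a log2 ratio of -0.63 to their mean, although the *Il6ra* transcript, at 3375 bases, falls in the length class whose median ratio was 0.01. The log2 fold change was 0.68 ± 0.16 (SE, n = 3 per group, edgeR adjusted p = 0.0117). Without IL-4 replicate 6 it was 0.87, and without control replicate 1 it was 0.66 with an adjusted p of 0.0517.

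*Osmr* (chr15:6813568-6874968) encodes the oncostatin M receptor chain. A stretch of its promoter is shown for its AP-1 element, in capitals, at +4 to +10 (chr15:6874294-6874320, minus strand).
Osmr promoter stretch: gccccgtagtTGATTCAtagctggggc
*Osmr* was high in both groups, at 7302, 7552 and 6534 normalized counts in controls and 8051, 7733 and 6307 with IL-4. The groups overlapped, and the log2 fold change was 0.05 ± 0.10 (SE, n = 3 per group, edgeR adjusted p = 0.759), with a 95% interval from -0.19 to 0.28. Its sign turned under library totals (-0.13), under which the median of all genes shifted by -0.17. *Osmr* and *Lifr*, whose products pair with gp130, had different fold changes, and their ratio in FPKM was 8.88 ± 0.263 (SD, n = 3) for controls and 5.49 ± 0.211 after IL-4. The ratio of *Il6st* to *Osmr* was 2.39 ± 0.125 in controls and 5.73 ± 0.549 with IL-4, and that of *Il6st* to *Il6ra* was 26.5 ± 2.88 and 41.3 ± 1.07. The ratio of *Il6st* to *Lifr* was 21.2 ± 0.513 and 31.5 ± 4.16. These ratios do not depend on the scaling of a library. A ratio between transcripts of different length can still carry the length difference between libraries described above. The highest *Il6* to *Lif* ratio, 1.38, was in IL-4 replicate 6. For all 5 ratios computed, the *Il6* to *Lif* ratio included, no IL-4 library overlapped a control and the two-sided exact permutation test gave p = 0.1 (0.1 after Benjamini-Hochberg adjustment), the smallest that 3 libraries against 3 allow.

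*Stat3* (chr11:100886806-100939594), the transcription factor downstream of these receptors, had 8181, 7929 and 7269 normalized counts in controls and 7320, 7173 and 6272 with IL-4. IL-4 replicate 4 lay just above the lowest control, so the groups overlapped. *Stat3* had a log2 fold change of -0.17 ± 0.08 (SE, n = 3 per group, edgeR adjusted p = 0.131), with a 95% interval from -0.35 to 0.01. Without control replicate 3 and IL-4 replicate 6, both the lowest of their group, it was -0.15 with an adjusted p of 0.00473.

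*Socs3* (chr11:117966079-117970336) encodes the inhibitor that STAT3 induces. Its promoter window (chr11:117969317-117969616, minus strand) is shown because it held the only STAT3-type element among the 11 windows, in capitals at -154 to -146. This window surrounds a RefSeq start that lies inside the listed span of the gene, not at the upstream end of that span.
Socs3 promoter: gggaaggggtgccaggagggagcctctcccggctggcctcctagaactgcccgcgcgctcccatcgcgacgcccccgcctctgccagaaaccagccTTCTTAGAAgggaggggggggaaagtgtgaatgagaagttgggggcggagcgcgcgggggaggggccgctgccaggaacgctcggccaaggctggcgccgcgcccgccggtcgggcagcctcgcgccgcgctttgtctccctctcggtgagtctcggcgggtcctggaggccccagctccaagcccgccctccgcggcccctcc
*Socs3* was measured at 1845, 1702 and 1781 normalized counts in controls and 1297, 1347 and 1429 with IL-4. The libraries of a group were close to each other and the groups were apart. The log2 fold change was -0.39 ± 0.06 (SE, n = 3 per group, edgeR adjusted p = 0.00202), a 1.31-fold fall that held under every alternative, from -0.56 to -0.35.

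**Figure D2:**
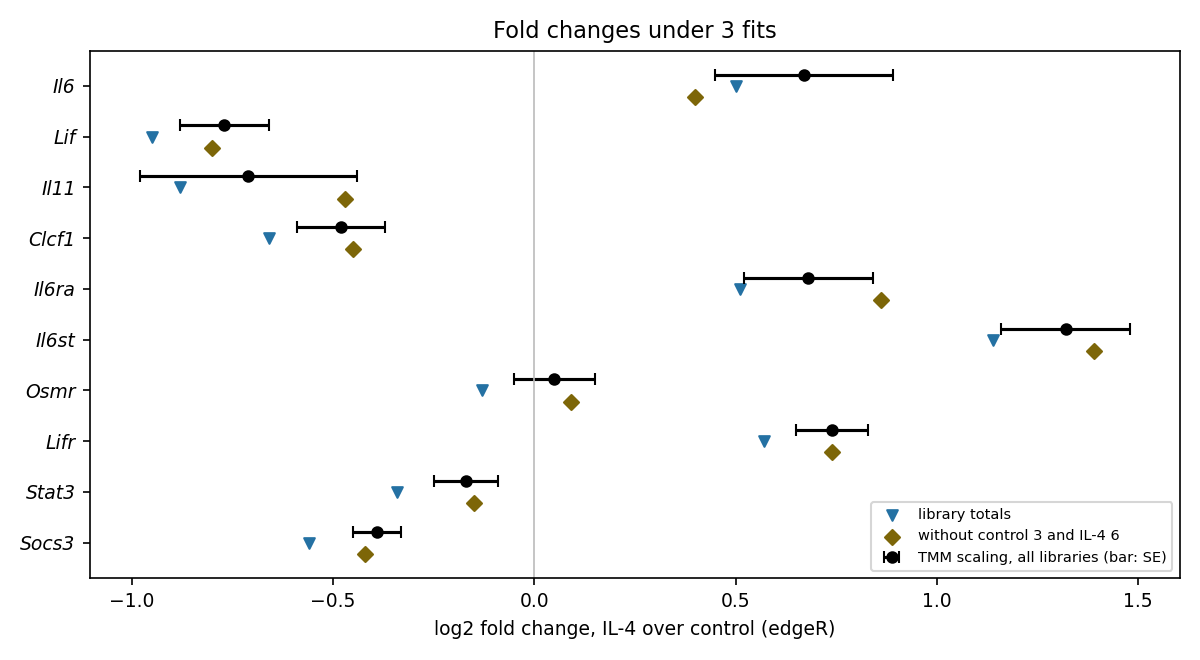
Log2 fold change of IL-4 over control (horizontal axis) for each of the 10 genes (vertical axis) from edgeR, with TMM scaling and all libraries (black, bars show the SE), with library totals in place of TMM scaling (blue) and without control replicate 3 and IL-4 replicate 6 (brown). Library totals place every gene lower, as they do the median of all genes (-0.17), and turn the sign of *Osmr*, whereas leaving out both libraries moved *Il6* from 0.67 to 0.40 and *Il6ra* from 0.68 to 0.86.

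Levels can be compared between genes per transcript length, in FPKM. In control APs the order was *Il6st* at 132 ± 15.2 (SD, n = 3), *Stat3* at 64.4 ± 3.5, *Osmr* at 55 ± 3.63, *Socs3* at 24.4 ± 1.1, *Lifr* at 6.2 ± 0.584, *Il6ra* at 4.96 ± 0.16, *Clcf1* at 4.64 ± 0.531, *Lif* at 4.19 ± 0.234, *Il6* at 1.72 ± 0.231 and *Il11* at 0.703 ± 0.206 FPKM. The ranges of *Il6ra* and *Clcf1* and those of *Clcf1* and *Lif* overlapped, and other neighbours did not. The signalling chain, the transcription factor and the inhibitor were measured well above the ligands. *Il6st* exceeded 97.4% of the genes detected in control APs in mean FPKM, whereas *Il6* exceeded 37.3%.

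In IL-4–treated APs, *Il6st* stood at 290 ± 57.5 FPKM (SD, n = 3), above 98.8% of the detected genes, and *Stat3* at 50.7 ± 3.34, *Osmr* at 50.3 ± 5.57 and *Socs3* at 16.6 ± 1.08. *Stat3* and *Osmr* could no longer be ordered, as their ranges overlapped. *Lifr* was at 9.14 ± 0.702 and *Il6ra* at 7.06 ± 1.55, each separated from its neighbours. The ligands *Clcf1* at 2.94 ± 0.265, *Il6* at 2.42 ± 0.658 and *Lif* at 2.17 ± 0.265 overlapped along this order, and *Il11* was last at 0.393 ± 0.0603 FPKM.

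**Figure D3:**
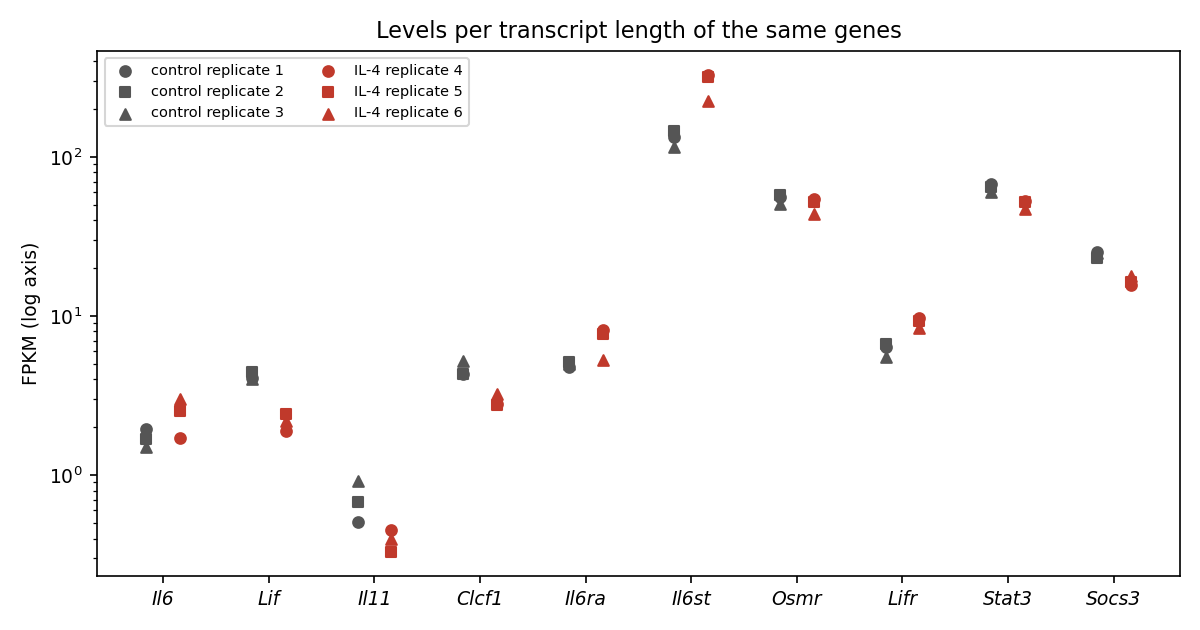
FPKM of the 10 genes (vertical axis, log scale) in each of the 3 control (grey) and 3 IL-4 (red) libraries, with a marker shape for each replicate. *Il6st* is the highest gene in every library and *Il11* the lowest, and the ligands lie at or under 5.25 FPKM.

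Other genes of the pathway were described from 6 lists that hold 61 genes, of which 57 were tested. At an adjusted p under 0.05, 19.0% of all tested genes were higher and 18.4% lower, shares to set beside each list's counts. Among the other ligands, 2 of 4 tested genes were lower and 1 was higher at an adjusted p under 0.05, with a median log2 fold change of -0.43. *Ctf1*, which encodes cardiotrophin 1, had 64.6, 70.1 and 76.9 normalized counts in controls and 31.0, 27.8 and 37.2 with IL-4 (log2 fold change -1.14 ± 0.17, SE). *Ebi3*, a subunit of IL-27 and IL-35, had 137, 145 and 191 normalized counts in controls and 64.2, 68.3 and 72.3 with IL-4 (log2 fold change -1.21 ± 0.16, SE). Both passed the thresholds of the study. *Osm*, which encodes oncostatin M, had 44.7, 38.4 and 68.5 normalized counts in controls and 81.3, 76.9 and 100 with IL-4 (log2 fold change 0.77 ± 0.23, SE, edgeR adjusted p = 0.0322), and was named after its value was seen. *Cntf* was not called, *Il27* was below the filter and *Ctf2* was not listed. The call of *Osm* was lost without control replicate 1, control replicate 2 or IL-4 replicate 4 (adjusted p from 0.0539 to 0.114), under library totals and in both limma fits on log2 FPKM.

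Among 6 tested receptors and the proteases that shed IL-6 receptors, 3 were higher and the other 3 were not called, with a median log2 fold change of 0.56. By the same rule 19.0% of all tested genes were higher and 18.4% were lower. *Il27ra*, which encodes the alpha chain that pairs with gp130 for IL-27, rose from 52.3, 55.7 and 82.6 to 300, 243 and 267 normalized counts (log2 fold change 2.09 ± 0.18, SE, edgeR adjusted p = 5.37e-05). *Il31ra*, a relative of gp130 that pairs with OSMR, rose from 24.7, 30.7 and 16.9 to 57.8, 66.2 and 46.5 (log2 fold change 1.23 ± 0.25, SE, edgeR adjusted p = 0.00552). The third was *Cntfr*, the receptor chain for CNTF, with a log2 fold change of 0.88 ± 0.11 (SE, edgeR adjusted p = 0.000489), named after its value was seen. *Cntfr* and *Lifr* rose and *Clcf1* fell in the same fit. *Adam10* (0.18) and *Adam17* (0.14) did not pass the test, and *Il11ra1*, at 0.23, did not either. Without control replicate 3 and IL-4 replicate 6 all 6 were called higher, in a fit that called 25.5% of all genes higher.

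Among 8 kinases, STATs and adaptors, the median log2 fold change was 0.04. Over all tested genes 19.0% were higher and 18.4% were lower. Of the 8, 6 were not called and 2 were higher, neither beyond a log2 fold change of 1. The genes, named after their values were seen, were the kinase *Jak2* (0.58 ± 0.08, SE) and the adaptor *Gab1* (0.50 ± 0.08). *Jak1*, the most abundant of this list at 71.3 FPKM on average in controls, had a log2 fold change of 0.15. Under library totals 2 of the 8 were higher and 4 were lower, and the median was -0.13. That scaling called 12.2% of all genes higher and 35.4% lower. Without control replicate 3 and IL-4 replicate 6, 4 were higher and 1 was lower, beside 25.5% and 25.1% of all genes.

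Among 12 other brakes on the pathway, 3 were higher, 3 were lower and the median was 0.02. The shares over all tested genes were 19.0% higher and 18.4% lower. *Cish*, a SOCS family member known as a target of STAT5 and STAT6, rose from 218, 218 and 212 to 2537, 2725 and 2983 normalized counts (log2 fold change 3.67 ± 0.08, SE, edgeR adjusted p = 8.32e-08). *Socs1*, which inhibits JAK kinases and is induced by many cytokines, rose from 120, 91.2 and 116 to 840, 960 and 1200 (3.19 ± 0.16, SE, edgeR adjusted p = 3.41e-06). Of the 8 tested genes of the SOCS family, *Socs3* included, *Cish* and *Socs1* were higher and *Socs3* was lower, and the other 5 were not called. *Socs2* (-0.19) was called lower under library totals (-0.36) and without control replicate 3 and IL-4 replicate 6 (-0.24, adjusted p = 0.00333). *Ptpn6*, the phosphatase SHP-1 that is abundant in blood cells, fell from 1339, 1479 and 1705 to 432, 506 and 554 normalized counts (log2 fold change -1.60 ± 0.12, SE), and 12 of the 15 macrophage markers were lower in the same libraries, whose part in this was not tested. The other calls, named after their values were seen, were *Ptpn2* (0.48), *Ptpn1* (-0.42) and *Pias3* (-0.21). The call of *Pias3* (edgeR adjusted p = 0.0435) was lost with DESeq2 (adjusted p = 0.0565) and without the filter on low counts (edgeR adjusted p = 0.0653). It was also lost when any library was left out (edgeR adjusted p from 0.0629 to 0.16).

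Among 17 tested STAT3 target and acute-phase genes, 11 were higher and 1 was lower, with a median log2 fold change of 0.38. Over all tested genes 19.0% were higher and 18.4% were lower. Under library totals 7 were higher and 2 were lower, with a median of 0.20, beside 12.2% and 35.4% of all genes. *Serpina3n*, a secreted protease inhibitor, rose from 1108, 1085 and 1368 to 29547, 27432 and 29619 normalized counts (log2 fold change 4.60 ± 0.11, SE, edgeR adjusted p = 1.01e-07). It was also the gene of this list with the highest FPKM with IL-4, at 467 on average. The kinase gene *Pim1* rose by 1.81 ± 0.06 (SE) on the log2 scale and *Fgl2*, which encodes a fibrinogen-like protein, by 1.61 ± 0.07. The other 8 that rose had log2 fold changes from 0.19 to 0.74. The gene called lower was *Hif1a* (-0.35 ± 0.09, SE). *Lcn2*, also on this list, was below the filter and not tested. It had 14.3, 8.64 and 10.3 normalized counts in controls and 3.21, 1.07 and 2.07 with IL-4, and was named after its values were seen. *Saa3*, an acute-phase gene, did not pass the test over all libraries, with 140, 164 and 150 normalized counts in controls and 50.3, 70.5 and 137 with IL-4, but without IL-4 replicate 6 its log2 fold change was -1.32 (adjusted p = 0.000122). Several of these genes, *Pim1*, *Bcl6*, *Myc* and *Il4ra* among them, are also known targets of other STATs, so the list is not specific to STAT3.

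Of 10 regulators of *Il6*, all act on mRNA stability except *Nfkbiz*, which encodes a nuclear cofactor for *Il6* transcription. Of the 10, 3 were higher, 4 were lower and the median was -0.18, beside 19.0% higher and 18.4% lower over all tested genes. The called genes were named after their values were seen. *Zfp36l1* (0.70 ± 0.06, SE), *Zc3h12a* (0.64 ± 0.08), which encodes the RNase Regnase-1, and *Arid5a* (0.25 ± 0.08), whose product stabilises *Il6* mRNA, were higher. *Zfp36l2* (-0.82 ± 0.06, SE), *Zc3h12c* (-0.45 ± 0.15), *Zfp36* (-0.35 ± 0.12), which encodes tristetraprolin, and *Nfkbiz* (-0.30 ± 0.06) were lower. Under library totals 2 were higher and 7 were lower, beside 12.2% and 35.4% of all genes. Genes whose products are known to promote decay of *Il6* mRNA, *Zc3h12a* and *Zfp36*, were found on both sides. *Zc3h12c*, *Zfp36* and *Arid5a* were near the threshold (edgeR adjusted p = 0.0486, 0.0437 and 0.0352). With each library left out in turn, 2 to 5 of the list were lower and 2 or 3 were higher. Those fits called 13.5% to 21.3% of all genes lower and 14.2% to 22.6% higher.

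**Figure D4:**
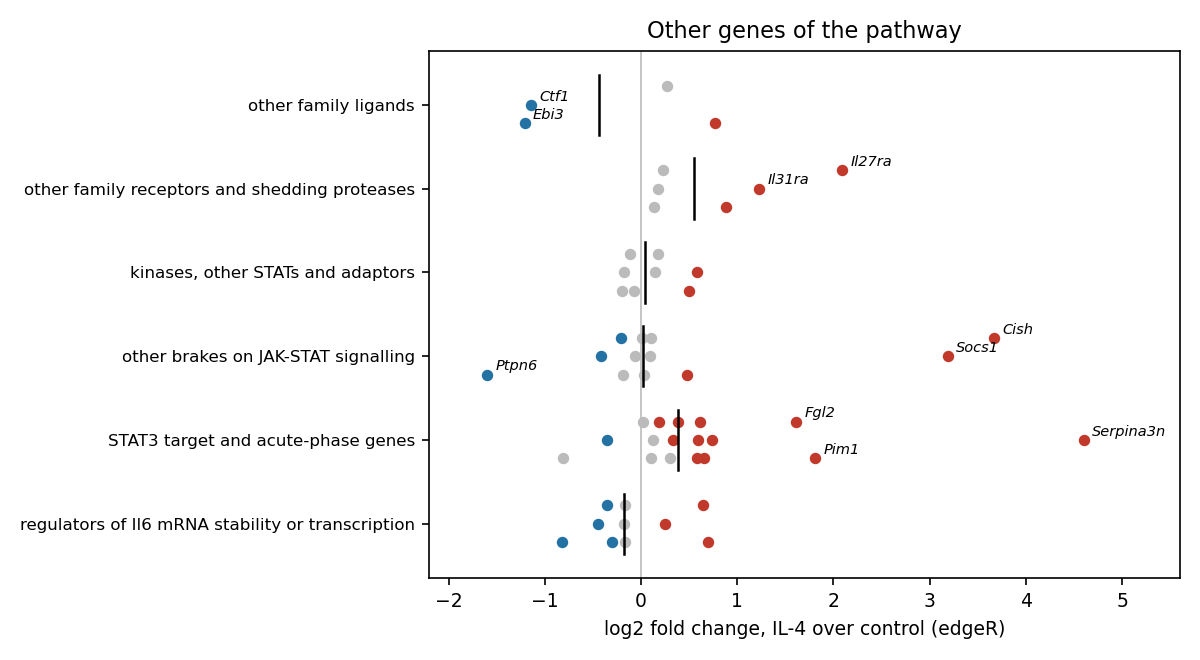
Log2 fold change of IL-4 over control from edgeR (horizontal axis) for the tested genes of 6 lists (vertical axis), 1 point per gene, in red or blue where the gene was higher or lower at an adjusted p under 0.05 and grey otherwise, with a black line at each list's median and names at genes beyond a log2 fold change of 1. The position of points within a list's band has no meaning, and *Serpina3n* (4.60), *Cish* (3.67) and *Socs1* (3.19) lie farthest to the right. The lists' medians shift down by about the shift of all genes (-0.17) under library totals.

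The genes with the most similar pattern over the 6 libraries were sought among 11419 genes with a mean of at least 100 normalized counts, by the Euclidean distance between log2 values centred on the control mean. For *Lif* they were *Pak1* (distance 0.145), *Fam132b* (0.181) and *Chodl* (0.205), with log2 fold changes of -0.79, -0.86 and -0.79. For *Socs3* they were *Gsr* (0.0316), *Lurap1l* (0.042) and *Cntrob* (0.0792), with log2 fold changes from -0.38 to -0.36. For *Il6ra* they were *Slc2a13* (0.106), *Rps6ka3* (0.202) and *Pla2r1* (0.207). For *Il6* they were *Endog* (0.302), *Sncg* (0.358) and *Il17rc* (0.416), at larger distances than for the other 3 genes.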

How the data were processed

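mRNA-seq was performed by the authors on poly-A RNA of 3 control and 3 IL-4–treated AP samples. Reads were filtered with SOAPnuke, and the gene levels were obtained with Bowtie2 and RSEM on RefSeq transcripts. HISAT, StringTie and the build mm10 are also named in the submitters' processing notes, without versions. The authors deposited expected counts per gene without normalization. The deposited FPKM are scaled by the length of the transcripts and the size of the library. A gene that a file did not list was taken as 0 there. Of the expected counts above 0, 87.0% were whole (tolerance 1e-06), and those of the 10 genes were whole in every library. The small RNA libraries were not used here.

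Expected counts were rounded, and 1 row without a gene number was dropped. Genes were filtered with filterByExpr (minimum count 10, minimum total 15), scaled with TMM and compared with the quasi-likelihood test of edgeR 4.0.16 (R 4.3.3), with Benjamini-Hochberg adjustment over 14009 genes. The SE is the log2 fold change divided by the square root of F, and the 95% intervals use the degrees of freedom of the test. Normalized counts are counts over the scaled library size, times the mean scaled size. Each library held about the same depth, so counts of 17 to 49 (*Il11*) and 46 to 94 (*Il6*) set the precision of the rarest genes. The fits were tested on simulated data. Alternatives were DESeq2 1.42.0, upper-quartile scaling, library totals, no filter, FPKM tested with limma 3.58.1 on the log2 scale with a pseudocount of 1 or 0.1, and each library left out. Leaving out control replicate 3 and IL-4 replicate 6 together, and mean transcript length as a covariate, were chosen after seeing the data. Coordinates and promoter windows (250 bases before to 50 after a start) are from RefSeq on GRCm38.p6, and 9 of the 10 genes matched a window.

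All 10 genes are named. From the 6 lists of the pathway, the genes past the study's thresholds and the gene of highest FPKM are named. Others are named too, among them genes marked as chosen after their values were seen. From the marker lists only some genes are named, and not all of those past the thresholds. For *Il6*, *Lif*, *Il6ra* and *Socs3*, the 3 genes of nearest pattern are named, on log2(normalized count + 1). The 10 genes and the lists were chosen with earlier results of these data known. Some genes of the lists are not reported here.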

Additional observations from a re-analysis of the deposited data

How the results depend on the processing

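Over 14 alternatives each, the calls of *Lif*, *Il6st*, *Lifr* and *Socs3* were kept. The call of *Il6* was lost with DESeq2 (0.66), upper-quartile scaling (0.65), library totals (0.50), limma on log2(FPKM + 1) (0.32) and on log2(FPKM + 0.1) (0.44), and without both libraries of short mean transcript length (0.40), with adjusted p from 0.0531 to 0.162. *Il11* gained a call under library totals (-0.88), limma on log2(FPKM + 1) (-0.28) and log2(FPKM + 0.1) (-0.68), and with mean transcript length as a covariate (-0.75). *Stat3* gained a call under library totals (-0.34), both limma fits (-0.34 and -0.35), without both libraries (-0.15) and with the covariate (-0.14). *Osmr* changed sign, uncalled, under library totals (-0.13) and both limma fits (-0.13 and -0.13), and was called higher with the covariate (0.09, adjusted p = 0.00934). The covariate fit called 59.3% of all tested genes, and all 10 of the axis, against 37.4% without it.

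Leaving out 1 library at a time gave log2 fold changes of 0.50 to 0.87 for *Il6*, -0.89 to -0.46 for *Il11*, -0.54 to -0.39 for *Clcf1*, 0.57 to 0.87 for *Il6ra* and -0.01 to 0.15 for *Osmr*, which was at -0.01 without control replicate 3 and also without IL-4 replicate 4. At any fold change 4 genes of the axis were higher and 3 lower, against 1 and 0 with the fold threshold. Over all genes 2663 were higher and 2582 lower at any fold change, against 809 and 737 with the fold threshold, and limma on log2(FPKM + 1) called 348 and 352. Library totals called 657 higher and 961 lower.

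No paired analysis was possible because the control and IL-4 libraries of mRNA-seq share no replicate numbers, and the small RNA libraries were not tested. With few reads, *Il11* and *Il6* limit what can be seen of ligands, and the cause of the shifts was not tested.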
